A study of Mus musculus with 12 samples.

Results

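The genes described here encode the subunits of the 3 nuclear RNA polymerases and the general transcription factors that bring polymerase II and polymerase III to their promoters. They were taken by name: every probe set whose single annotated symbol begins with Polr1, Polr2, Polr3, Gtf2 or Gtf3. This gave 97 of 45037 probe sets and 47 of 18193 genes, with each gene read on the probe set that varied most over the 12 arrays. Of the 47 genes, 25 encode polymerase subunits (5 Polr1, 11 Polr2 and 9 Polr3) and 22 encode general factors (15 Gtf2 and 7 Gtf3). The shared subunits Polr2k and Polr2l and the TFIIH subunit Gtf2h2 were not analysed here. The gene families were chosen with earlier results of these data known, but no measured value entered the choice of a member.

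RNA polymerase I makes the large ribosomal RNA precursor in the nucleolus, polymerase II makes messenger RNA, and polymerase III makes transfer RNA, the smallest ribosomal RNA and other short RNAs. Each enzyme has its own pair of large catalytic subunits, and the enzymes share several small ones: Polr2e, Polr2f and Polr2h stand in all 3, and Polr1c and Polr1d in polymerases I and III. Polymerase II starts transcription with the factors TFIIA, TFIIB, TFIID, TFIIE, TFIIF and TFIIH, and polymerase III uses TFIIIA, TFIIIB and TFIIIC. Erythroid and granulocyte-monocyte progenitors both divide and build ribosomes, so all 3 enzymes work in both.

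All arrays hold RNA of female C57BL/6 mice aged 4 to 6 weeks, from bone marrow progenitors sorted as lineage-negative, CD117+ and Sca-1-, at 80000 cells per population. Common myeloid progenitors (CMP), which carry CD34 and lack CD16/32, were divided into a CD27+ and a CD27- fraction. Granulocyte-monocyte progenitors (GMP) carry CD34, CD16/32 and CD27, and megakaryocyte-erythrocyte progenitors (MEP) lack all of them. Each of the 4 populations has 3 arrays. No animal carried an engineered allele or was treated, as far as the labels say. The arrays of a population are labelled biological replicates, with nothing on whether they stand for different animals or pools; p-values therefore measure only the spread between these arrays, which may be technical. Every value is a log2 signal relative to the median of the 12 arrays for that probe set, so a gene can be compared between populations but not with another gene. In these bulk samples, fewer cells of a type and less RNA per cell cannot be told apart.

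The erythroid and granulocyte-monocyte markers followed the CD27 division. Of 7 erythroid markers 6 were lower in CD27+ CMP than in CD27- CMP and 6 were lower in GMP than in MEP, with Klf1 at -7.23 and -7.69 log2. All 8 granulocyte-monocyte markers differed the other way in both comparisons, and Fcgr3, which encodes CD16, differed by -4.95 log2 between CD27+ CMP and GMP (adjusted p = 0.0015). The mean of the erythroid list ran from -4.99 to -2.57 on the 6 CD27+ arrays and from 2.45 to 2.88 on the 6 CD27- arrays. The mean of 20 immediate early and stress genes ran from 0.35 to 1.24 on the CD27+ arrays and from -0.47 to -0.10 on the CD27- arrays. For 17 mitosis genes the same ranges were -0.09 to 0.03 and -0.14 to 0.23. Of these genes 3 were called lower between the CMP fractions (17.6%, against 10.3% of all genes). Between GMP and MEP 4 were lower (23.5%, against 11.3%), and 0 were higher in either comparison. Of 5 mature B and T cell markers none was called in either pairwise comparison in limma's fit (0 at an unadjusted p under 0.05 in each). Of 5 megakaryocyte markers 1 was lower in each comparison, of 6 early lymphoid markers 4 were higher in CD27+ CMP and 1 in GMP, and of 6 stromal and endothelial markers 1, Pecam1, was higher in each. Between CD27- CMP and MEP, 0 of 7 erythroid, 0 of 8 granulocyte-monocyte and 0 of 5 megakaryocyte markers were called, where 0.033% of all genes were. The mean of the megakaryocyte list ran from 0.35 to 2.32 on the CD27- CMP arrays and from -0.16 to 0.95 on the MEP arrays. What part the erythroid, granulocyte-monocyte, lymphoid, stress and mitosis genes that move with the CD27 division have in the results below was not tested.

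Promoters are shown for members called lower both in CD27+ CMP against CD27- CMP and in GMP against MEP. Only windows that touched no annotated gene are printed, so that a reader can see what stands before genes that moved together. They are the 250 bases before the RefSeq transcription start in GRCm38.p6, 5′ to 3′ on the strand of the gene: Polr1e at chr4:45018359-45018608, Polr2c at chr8:94857200-94857449, Polr2j at chr5:136116441-136116690 and Polr3k at chr2:181864110-181864359, all on the plus strand. Capitals mark a match to one of 4 motifs searched on both strands.
Polr1e: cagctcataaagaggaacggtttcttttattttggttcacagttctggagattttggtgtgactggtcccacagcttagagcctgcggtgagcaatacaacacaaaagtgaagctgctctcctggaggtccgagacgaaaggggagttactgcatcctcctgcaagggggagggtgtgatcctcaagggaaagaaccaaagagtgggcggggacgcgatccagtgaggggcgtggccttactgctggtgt
Polr2c: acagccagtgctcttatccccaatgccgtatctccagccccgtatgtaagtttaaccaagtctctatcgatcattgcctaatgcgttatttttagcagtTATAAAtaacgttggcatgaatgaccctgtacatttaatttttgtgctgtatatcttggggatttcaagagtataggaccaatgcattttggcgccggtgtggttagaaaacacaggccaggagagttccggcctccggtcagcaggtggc
Polr2j: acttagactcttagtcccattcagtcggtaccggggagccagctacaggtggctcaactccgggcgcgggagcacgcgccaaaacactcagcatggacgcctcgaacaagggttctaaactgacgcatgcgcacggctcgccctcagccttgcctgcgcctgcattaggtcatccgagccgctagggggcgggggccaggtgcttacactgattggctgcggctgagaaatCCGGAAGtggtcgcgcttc
Polr3k: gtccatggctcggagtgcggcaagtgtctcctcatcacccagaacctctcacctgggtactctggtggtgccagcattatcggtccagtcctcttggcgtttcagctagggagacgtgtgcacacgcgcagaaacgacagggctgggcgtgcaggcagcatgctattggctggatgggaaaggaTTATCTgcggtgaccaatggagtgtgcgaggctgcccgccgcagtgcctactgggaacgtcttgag
Each window was searched for CACGTG (an E-box, which Myc proteins can bind), CCGGAAG (a core bound by ETS factors, reverse CTTCCGG) and AGATAA (bound by GATA factors, reverse TTATCT). It was also searched for TATAAA, the sequence to which the TATA-binding protein binds, whose reverse is TTTATA. Each printed window holds at most 1 match. Promoters were found for 42 of the 47 members. CCGGAAG was in 11 of the 42 (26.2%), against 7.83% of 27025 genes with a window of that length, and CACGTG was in 8 (19.0%), against 6.86%. The 27025 are all genes of the RefSeq promoter set, not only those read on the arrays. No comparison with genes of like expression was made. TATAAA was in 5 (11.9%, against 14.3%) and AGATAA was in 1, Polr3k (2.38%, against 11.4%). In the comparison of the mean of both CD27+ populations with that of both CD27- populations, 21 members with a promoter were lower. Of these, 5 held CCGGAAG and 2 held CACGTG. Of the other 21 members with a promoter, 6 held CCGGAAG and 6 held CACGTG. These are matches of letters and do not show binding.

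More polymerase subunits were lower than higher in each CD27+ population against its CD27- counterpart, while fewer of the general factors were called. In CD27+ CMP against CD27- CMP, 14 of the 47 members fell and 3 rose (adjusted p under 0.05 in limma's fit over all genes). Over all genes 10.3% were called lower and 12.1% were called higher. In GMP against MEP, 17 members fell and 2 rose, against 11.3% and 11.5% of all genes. The median difference of the members was -0.44 log2 between the CMP fractions and -0.39 between GMP and MEP, where the medians of all genes were -0.03 and -0.04. Of the 14 members that fell between the CMP fractions, 11 were among the 25 polymerase subunits (44.0%). The general factors there were close to all genes, with 3 of 22 lower (13.6%) and 2 higher (9.09%), and 59.1% of them were below 0. All genes include many that varied little, while only 2 members had a range under 0.5 log2 over the 12 arrays. Among genes with a range of at least 0.5 log2, fitted and adjusted alone, 19.8% were lower and 22.8% higher between the CMP fractions. The member counts given here come from the fit over all genes. In the fit of that range alone, the general factors Gtf2f1, Gtf2a2, Gtf3c5 and Gtf3c3 were also called lower, as were Polr3g and Polr3a. Polr2b was not called in it, and Polr2m lay outside that range. Between GMP and MEP 12 of the 25 subunits and 5 of the 22 general factors (22.7%) were lower. Of genes with that range, 21.5% were lower and 21.0% higher in GMP than in MEP. Differences below 0 were common in all genes as well: 34 of 47 members (72.3%) against 68.6% between the CMP fractions, and 40 of 47 (85.1%) against 72.6% between GMP and MEP. The arrays of the CMP fractions did not overlap for 25 members in the lower and 5 in the higher direction, against 17.9% and 15.7% of all genes. Those of GMP and MEP did not overlap for 21 and 3 members, against 25.7% and 14.7% of all genes. Of the calls in GMP against MEP, the 17 lower became 10 without GMP replicate 1 and 11 without MEP replicate 2, and the 2 higher became 0 in both.

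The CMP comparison and the comparison of GMP with MEP share no array. Both were tested in the same fit, which took the spread of a gene from all arrays. A gene therefore had the same standard error in both, and their calls were not independent. The Polr2f call between the CMP fractions, for example, was lost without GMP replicate 2 and without MEP replicate 2. In both comparisons 13 members were lower: Polr1b, Polr1c, Polr1d, Polr1e, Polr2b, Polr2c, Polr2f, Polr2j, Polr3d, Polr3e, Polr3k, Gtf2h3 and Gtf2h4. That is 92.9% of the 14 members lower in CD27+ CMP and 76.5% of the 17 lower in GMP. The same shares over all genes were 77.8% and 70.7%, and 8.02% of all genes were lower in both. Only Gtf2ird1 was higher in both, where 9.08% of all genes were; with a replicate block its call between GMP and MEP was lost (adjusted p = 0.054). The difference was below 0 in both comparisons for 33 members, against 63.9% of all genes. The difference between the 2 comparisons was itself tested for each gene, and 0 of 47 members were called in limma's fit (2 at an unadjusted p under 0.05, Polr2m and Polr3d). Over all genes 2.06% were called in that test and 8.73% had an unadjusted p under 0.05.

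**Figure D1:**
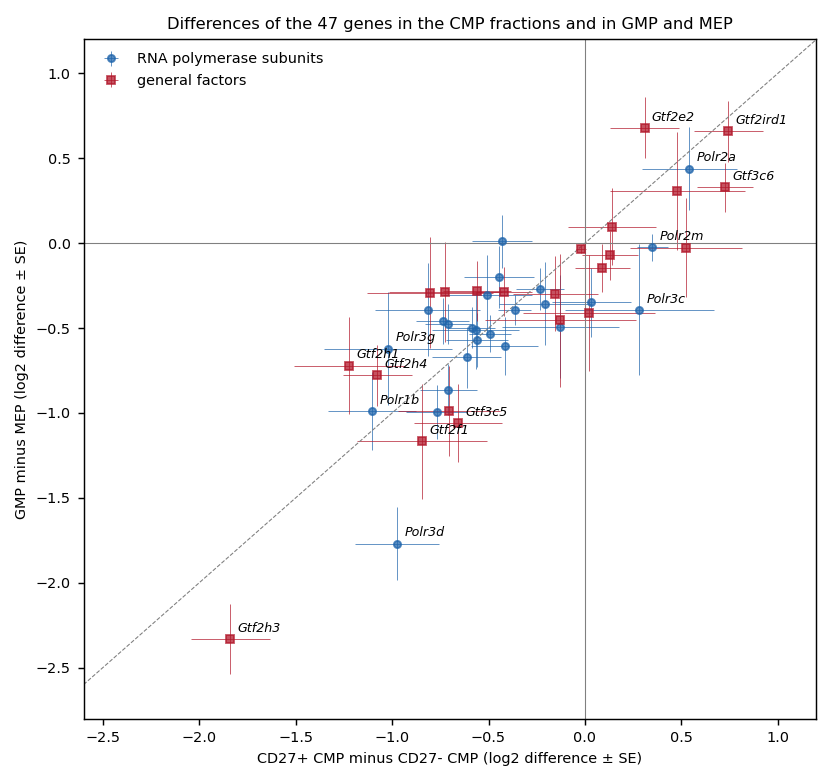
Each point is 1 of the 47 genes, with the log2 difference between the CMP fractions on the horizontal axis and that between GMP and MEP on the vertical axis, both with their standard errors. 33 genes lie below 0 on both axes, Gtf2h3 and Polr3d lie lowest, and the dashed line marks equal differences.

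With both CD27+ populations set against both CD27- populations (the 6 against 6 comparison), 23 members fell and 3 rose, where 16.5% of all genes were lower and 15.1% higher. Among genes with a range of at least 0.5 log2, fitted and adjusted alone, 28.8% were lower and 27.5% higher. In that separate fit Gtf3c2 was also called lower (adjusted p = 0.049) and Polr2a higher (adjusted p = 0.03). The difference was below 0 for 38 members (80.9%), against 70.2% of all genes. The 23 were spread over both families, 15 of 25 polymerase subunits and 8 of 22 general factors, and the 3 that rose were general factors. For 15 of the members that fell and 2 that rose, the 6 arrays of one side did not overlap the 6 of the other. Over all genes that held for 10.1% in the lower and 10.2% in the higher direction. The median of the members on each array showed the same division. It read -0.42, -0.09 and -0.29 on the CD27+ CMP arrays and -0.27, -0.10 and -0.07 on the GMP arrays. On the CD27- CMP arrays it read 0.10, 0.13 and 0.12, and on the MEP arrays 0.12, 0.17 and 0.22. CD27+ CMP replicate 1 and GMP replicate 1 were the lowest of their populations, and no CD27+ array reached a CD27- array. The medians of all genes on the 12 arrays lay between -0.03 and 0.05.

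**Figure D2:**
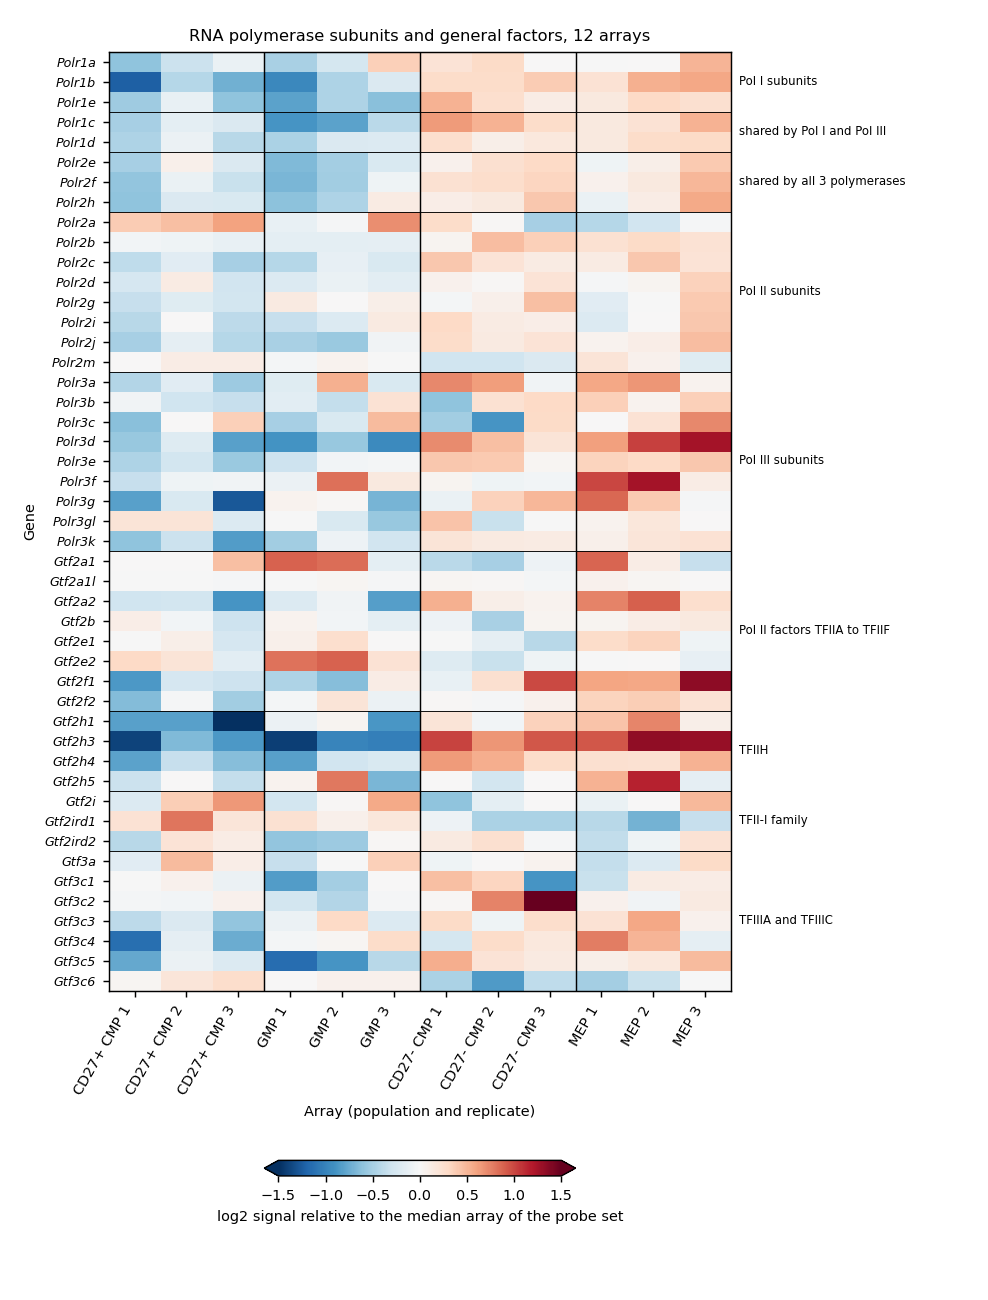
Each row is 1 of the 47 genes, grouped by complex, and each column is 1 of the 12 arrays, with colour for the log2 signal relative to the median array of the probe set (red above, blue below, clipped at 1.5). The CD27+ CMP and GMP columns are mostly blue in the polymerase rows, and the CD27- CMP and MEP columns are mostly red.

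Of the 5 genes of polymerase I and of the subunits it shares with polymerase III, 4 were lower between the CMP fractions, 4 between GMP and MEP, and 4 in the 6 against 6 comparison, where 10.3%, 11.3% and 16.5% of all genes were lower. Polr1a, the largest catalytic subunit, did not pass the test in any comparison. Polr1b, the second catalytic subunit, read -1.23, -0.43 and -0.72 in CD27+ CMP and -0.97, -0.46 and -0.22 in GMP. In CD27- CMP it read 0.28, 0.27 and 0.38, and in MEP 0.22, 0.53 and 0.58. Every CD27- array stood above every CD27+ array for this gene. Polr1b was 1.10 log2 lower in the CD27+ than in the CD27- fraction of CMP (SE 0.23, adjusted p = 0.0067) and 0.99 lower in GMP than in MEP (SE 0.23, adjusted p = 0.012).

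Polr1e, a subunit particular to polymerase I that works in initiation and elongation, read -0.53, -0.11 and -0.60 in CD27+ CMP and -0.80, -0.46 and -0.63 in GMP. It read 0.52, 0.25 and 0.11 in CD27- CMP and 0.15, 0.30 and 0.24 in MEP. Again the 6 CD27+ arrays lay below the other 6. The differences were -0.71 (SE 0.15, adjusted p = 0.0071) between the CMP fractions and -0.86 (SE 0.15, adjusted p = 0.0022) between GMP and MEP. Polr1a read -0.60, -0.32 and -0.10 in CD27+ CMP, -0.49, -0.26 and 0.36 in GMP, 0.20, 0.29 and 0.01 in CD27- CMP and -0.01, 0.01 and 0.51 in MEP. GMP and MEP overlapped for Polr1a. Its differences of -0.51 (adjusted p = 0.18) and -0.30 (adjusted p = 0.37), each with an SE of 0.23, had the sign of the other subunits without passing the test.

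Polr1c and Polr1d form the small pair on which the cores of polymerases I and III are assembled. Polr1c read -0.50, -0.15 and -0.22 in CD27+ CMP and -0.88, -0.80 and -0.41 in GMP, against 0.64, 0.52 and 0.28 in CD27- CMP and 0.15, 0.22 and 0.52 in MEP. Its lowest arrays were GMP replicates 1 and 2 and its highest was CD27- CMP replicate 1, and no CD27+ array reached a CD27- array. Between the CMP fractions it fell by 0.77 (SE 0.16, adjusted p = 0.0066), and between MEP and GMP it was 1.00 lower in GMP (adjusted p = 0.0014). Polr1d showed a smaller difference of the same sign. It read -0.46, -0.09 and -0.42 in CD27+ CMP, -0.48, -0.22 and -0.20 in GMP, 0.25, 0.09 and 0.16 in CD27- CMP and 0.15, 0.27 and 0.29 in MEP, with differences of -0.49 (SE 0.11, adjusted p = 0.0094) and -0.53 (adjusted p = 0.0058). The calls of Polr1b, Polr1c, Polr1d and Polr1e in both comparisons were made in each of the 12 fits that left out 1 array.

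All 3 measured subunits common to the 3 polymerases fell in the 6 against 6 comparison, where 16.5% of all genes were lower. Polr2f fell by 0.64 (SE 0.13, adjusted p = 0.0035), Polr2h by 0.54 (SE 0.16, adjusted p = 0.029) and Polr2e by 0.51 (SE 0.12, adjusted p = 0.010). Polr2f read -0.59, -0.10 and -0.33 in CD27+ CMP and -0.69, -0.52 and -0.07 in GMP. In CD27- CMP it read 0.23, 0.26 and 0.32, and in MEP 0.07, 0.15 and 0.50. The 2 sides of 6 arrays did not overlap for Polr2f. Polr2e read -0.50, 0.08 and -0.22 in CD27+ CMP, -0.66, -0.51 and -0.23 in GMP, 0.07, 0.24 and 0.30 in CD27- CMP and -0.07, 0.09 and 0.39 in MEP, and CD27+ CMP replicate 2 overlapped the CD27- arrays. Polr2h read -0.60, -0.22 and -0.23 in CD27+ CMP, -0.62, -0.46 and 0.12 in GMP, 0.10, 0.15 and 0.41 in CD27- CMP and -0.10, 0.11 and 0.57 in MEP, with GMP replicate 3 among the CD27- arrays. Between the CMP fractions only Polr2f of the 3 was called (-0.61, adjusted p = 0.037), and that call was lost in 7 of the 12 fits that left out 1 array, with adjusted p up to 0.13.

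Of the 8 subunits counted for polymerase II alone, 3 fell in the 6 against 6 comparison, where 16.5% of all genes were lower. The 3 were Polr2b, the second catalytic subunit, and Polr2c and Polr2j, the pair on which its core is assembled. The largest subunit of polymerase II was not called there, and neither was that of polymerase I. Polr2c read -0.38, -0.17 and -0.50 in CD27+ CMP, -0.43, -0.12 and -0.23 in GMP, 0.40, 0.20 and 0.12 in CD27- CMP and 0.12, 0.40 and 0.20 in MEP. The CD27+ arrays all lay below 0 and the CD27- arrays all above. Its differences were -0.59 (SE 0.12, adjusted p = 0.0059) between the CMP fractions and -0.50 (adjusted p = 0.014) between GMP and MEP. Polr2j read -0.50, -0.14 and -0.43 in CD27+ CMP, -0.49, -0.56 and -0.05 in GMP, 0.27, 0.13 and 0.20 in CD27- CMP and 0.05, 0.10 and 0.46 in MEP. For Polr2j the differences were -0.56 (adjusted p = 0.033) and -0.57 (adjusted p = 0.030), each with an SE of 0.16, and the calls were lost in 5 and 4 of the 12 fits that left out 1 array.

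The differences of Polr2b were among the smaller ones called. It read -0.04, -0.07 and -0.11 in CD27+ CMP, -0.15, -0.15 and -0.14 in GMP, 0.04, 0.46 and 0.36 in CD27- CMP and 0.23, 0.29 and 0.22 in MEP. The arrays of CD27- CMP spread widely and those of the other populations lay close together. Its differences were -0.37 (SE 0.09, adjusted p = 0.015) and -0.39 (adjusted p = 0.0096); the first was lost without CD27+ CMP replicate 3 (highest adjusted p 0.052). Polr2a, the largest subunit, whose C-terminal tail is phosphorylated as transcription starts and proceeds, read 0.38, 0.45 and 0.60 in CD27+ CMP and -0.11, -0.02 and 0.70 in GMP. It read 0.28, 0.02 and -0.50 in CD27- CMP and -0.43, -0.29 and -0.02 in MEP. The CD27+ CMP arrays were above the CD27- CMP arrays, while GMP and MEP overlapped. Neither difference, 0.54 (adjusted p = 0.18) nor 0.44 (adjusted p = 0.25), each with an SE of 0.25, passed the test, and both had the opposite sign to Polr2b.

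Polr2m, which binds polymerase II and is not part of its core, was 1 of the 3 members that rose in CD27+ CMP. Its arrays read 0.01, 0.11 and 0.11 there, -0.03, 0.05 and -0.01 in GMP, -0.30, -0.30 and -0.22 in CD27- CMP and 0.19, 0.06 and -0.18 in MEP. The CD27- CMP arrays were the lowest. It was 0.35 higher in the CD27+ than in the CD27- fraction of CMP (SE 0.08, adjusted p = 0.011), while GMP and MEP differed by -0.03 (adjusted p = 0.82). The test of the difference between these comparisons gave 0.37 (SE 0.11, adjusted p = 0.21). Its range over the 12 arrays, 0.50 log2, was among the smallest of the members. The other subunits, Polr2d, Polr2g and Polr2i, were not called in any comparison, with 6 against 6 differences of -0.25, -0.21 and -0.32.

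**Figure D3:**
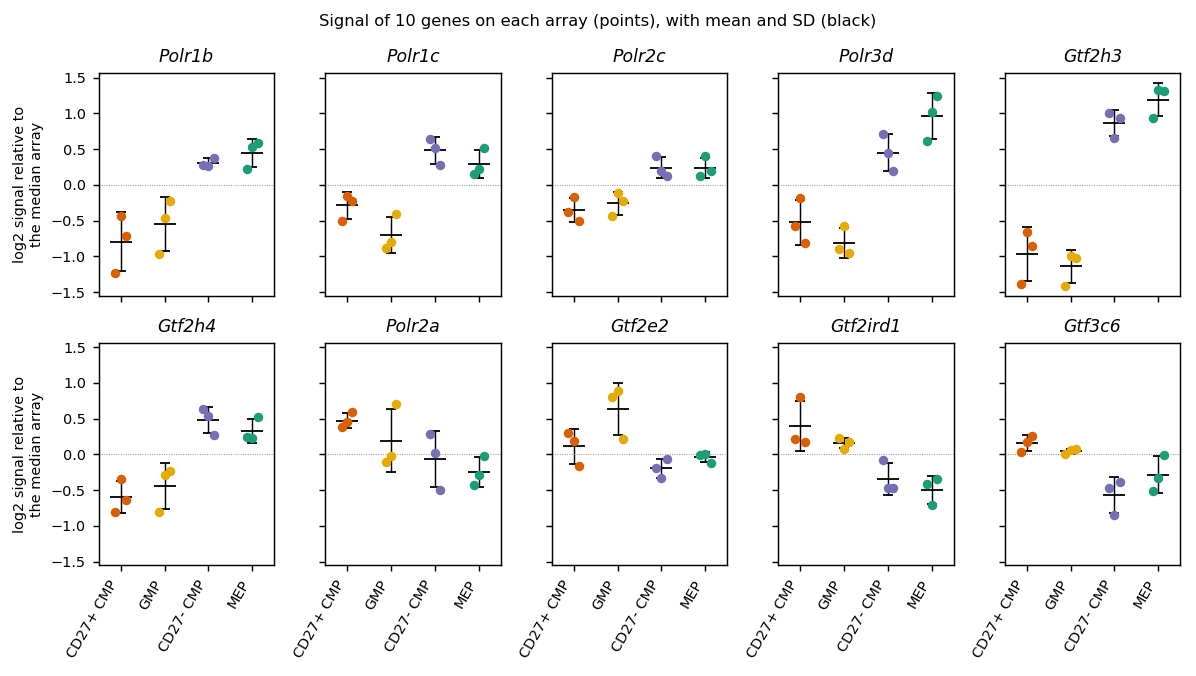
Points are the log2 signal of 10 genes on each of the 12 arrays, relative to the median array of the probe set, with the mean and standard deviation of the 3 arrays of a population in black. In the panels of Polr1b, Polr1c, Polr2c, Polr3d, Gtf2h3 and Gtf2h4 all CD27- CMP and MEP points lie above all CD27+ CMP and GMP points, and in those of Gtf2ird1 and Gtf3c6 they lie below.

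Among the 9 subunits of polymerase III alone, 5 fell in the 6 against 6 comparison and none rose. Of all genes 16.5% were lower and 15.1% higher there. Polr3d, which forms a pair with Polr3e that acts in initiation and termination, had the widest difference of any polymerase subunit between GMP and MEP. It read -0.57, -0.19 and -0.81 in CD27+ CMP and -0.90, -0.57 and -0.96 in GMP. In CD27- CMP it read 0.71, 0.45 and 0.19, and in MEP 0.61, 1.02 and 1.25. Every CD27- array was above every CD27+ array, and the highest were in MEP. The differences were -0.97 (SE 0.22, adjusted p = 0.0096) between the CMP fractions and -1.77 (SE 0.22, adjusted p = 0.00024) between GMP and MEP, and the test of one against the other gave 0.80 (SE 0.31, adjusted p = 0.42).

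Polr3e, its partner, read -0.46, -0.27 and -0.56 in CD27+ CMP, -0.31, -0.04 and -0.03 in GMP, 0.41, 0.39 and 0.03 in CD27- CMP and 0.33, 0.30 and 0.41 in MEP. It was 0.71 lower in the CD27+ than in the CD27- fraction of CMP (SE 0.12, adjusted p = 0.0019) and 0.48 lower in GMP than in MEP (adjusted p = 0.017). Polr3k, the small subunit that takes part in cleaving the transcript, read -0.60, -0.32 and -0.84 in CD27+ CMP, -0.52, -0.08 and -0.29 in GMP, 0.19, 0.13 and 0.12 in CD27- CMP and 0.08, 0.18 and 0.22 in MEP. No CD27+ array of Polr3e or Polr3k reached a CD27- array. Polr3k was 0.74 lower in CD27+ CMP (SE 0.14, adjusted p = 0.0033) and 0.46 lower in GMP (adjusted p = 0.038). Between GMP and MEP the call of Polr3e was lost without GMP replicate 1 and without MEP replicate 3 (adjusted p up to 0.066), and that of Polr3k in 9 of the 12 fits (up to 0.13).

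On the probe sets used, the catalytic subunits of polymerase III moved less clearly. Polr3a read -0.44, -0.17 and -0.55 in CD27+ CMP, -0.18, 0.53 and -0.23 in GMP, 0.72, 0.63 and -0.05 in CD27- CMP and 0.58, 0.66 and 0.05 in MEP. GMP replicate 2 lay among the CD27- arrays. On this probe set Polr3a was called in the 6 against 6 comparison alone (-0.60, SE 0.19, adjusted p = 0.041). That call was lost in 8 of the 12 fits that left out 1 array, and with adjustment over all probe sets (adjusted p = 0.056). With the mean of its 3 probe sets, Polr3a was also called between the CMP fractions (-0.56, adjusted p = 0.0013). The same mean was lower in GMP than in MEP (-0.38, adjusted p = 0.012). Polr3b read -0.05, -0.30 and -0.34 in CD27+ CMP, -0.16, -0.36 and 0.22 in GMP, -0.60, 0.23 and 0.30 in CD27- CMP and 0.36, 0.05 and 0.36 in MEP, and its 6 against 6 difference was -0.28 (SE 0.17, adjusted p = 0.22).

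Polr3g and Polr3gl are alternative forms of the same subunit, of which Polr3g is known from stem cells and proliferating cells and Polr3gl is found more widely. Polr3g read -0.82, -0.23 and -1.27 in CD27+ CMP, 0.05, 0.02 and -0.70 in GMP, -0.10, 0.34 and 0.50 in CD27- CMP and 0.86, 0.39 and -0.02 in MEP. Its arrays spread widely, with the lowest in CD27+ CMP. It was 1.18 lower in CD27+ CMP than in MEP (SE 0.33, adjusted p = 0.028) and 0.82 lower in the 6 against 6 comparison (SE 0.23, adjusted p = 0.024), and these calls were lost in 4 and 5 of the 12 fits. Polr3gl read 0.19, 0.19 and -0.20 in CD27+ CMP, -0.01, -0.23 and -0.57 in GMP, 0.43, -0.33 and -0.01 in CD27- CMP and 0.05, 0.17 and 0.01 in MEP. It differed by -0.16 (SE 0.15, adjusted p = 0.38) in the 6 against 6 comparison, and the difference between both forms was not tested. The subunits Polr3c and Polr3f were not called in any comparison, with 6 against 6 differences of -0.06 (SE 0.27) and -0.31 (SE 0.21).

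**Figure D4:**
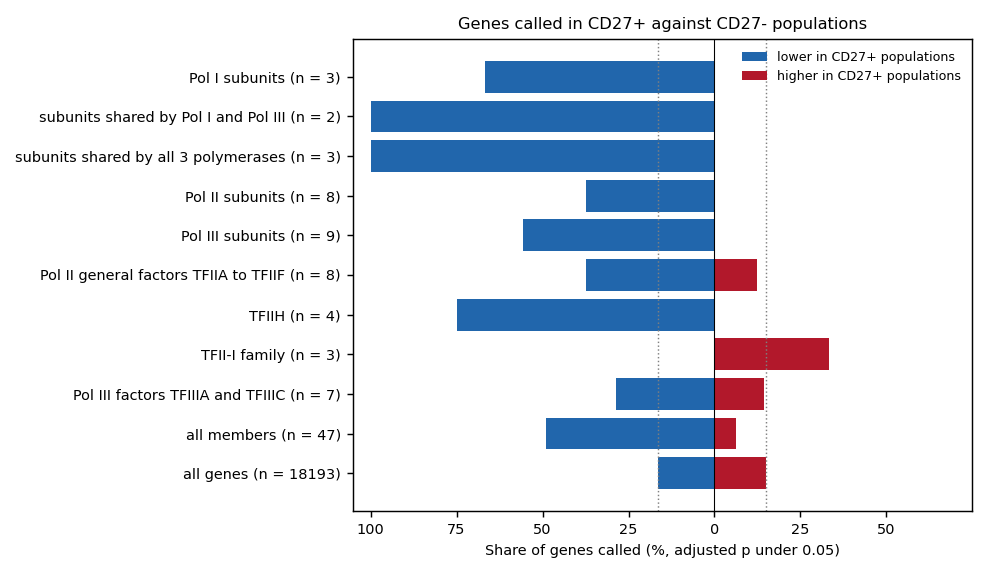
Bars give the share of genes called lower (blue, to the left) and higher (red, to the right) in the 6 CD27+ arrays against the 6 CD27- arrays, for each complex, all 47 members and all 18193 genes, with dotted lines at the shares of all genes. The groups hold 2 to 9 genes, and the share of lower calls is 48.9% over all members against 16.5% over all genes.

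Of the 8 genes of TFIIA, TFIIB, TFIIE and TFIIF, 3 fell and 1 rose in the 6 against 6 comparison. There 16.5% of all genes were lower and 15.1% higher. None of the 8 was called between the CMP fractions in limma's fit (3 at an unadjusted p under 0.05). The shares of all genes between those fractions were 10.3% lower and 12.1% higher. TFIIF escorts polymerase II to the promoter, and its large subunit Gtf2f1 read -0.86, -0.25 and -0.31 in CD27+ CMP, -0.46, -0.64 and 0.11 in GMP, -0.11, 0.24 and 0.99 in CD27- CMP and 0.59, 0.58 and 1.34 in MEP. MEP replicate 3 was the highest. It was 1.17 lower in GMP than in MEP (SE 0.34, adjusted p = 0.035), a call lost in 6 of the 12 fits, and 1.31 lower in CD27+ CMP than in MEP (adjusted p = 0.019). Gtf2f2, its partner, read -0.65, -0.02 and -0.52 in CD27+ CMP, -0.03, 0.19 and -0.09 in GMP, 0.02, -0.02 and 0.07 in CD27- CMP and 0.33, 0.37 and 0.22 in MEP. Its largest difference was that of CD27+ CMP from MEP, -0.70 (SE 0.15, adjusted p = 0.0058).

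TFIIA steadies the TATA-binding protein on DNA. Its small subunit Gtf2a2 read -0.30, -0.27 and -0.88 in CD27+ CMP, -0.20, -0.05 and -0.83 in GMP, 0.53, 0.09 and 0.05 in CD27- CMP and 0.74, 0.90 and 0.25 in MEP. The CD27+ arrays all lay below the CD27- arrays, with replicate 3 lowest in both CD27+ populations. It was 0.99 lower in GMP than in MEP (SE 0.26, adjusted p = 0.024), and that call was lost in 3 of the 12 fits. Gtf2a1, which encodes the precursor of the other TFIIA subunits, read 0.00, -0.00 and 0.45 in CD27+ CMP, 0.88, 0.84 and -0.15 in GMP, -0.40, -0.50 and -0.08 in CD27- CMP and 0.87, 0.11 and -0.34 in MEP. Its populations overlapped widely, apart from the CMP fractions, and it was not called in any comparison. Its germ cell relative Gtf2a1l stayed within 0.09 log2 over all 12 arrays, from -0.03 to 0.06; these centred values do not show whether it was expressed.

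TFIIE brings TFIIH to the promoter, and its subunit Gtf2e2 was 1 of the 2 members that rose in GMP against MEP. It read 0.81, 0.89 and 0.22 in GMP, -0.01, 0.01 and -0.12 in MEP, 0.30, 0.19 and -0.16 in CD27+ CMP and -0.19, -0.33 and -0.07 in CD27- CMP. GMP stood above MEP and CD27- CMP without overlap. The differences were 0.68 from MEP (SE 0.18, adjusted p = 0.022), a call lost in 5 of the 12 fits, and 0.84 from CD27- CMP (adjusted p = 0.0079), a call made in each of them. Gtf2b, the single subunit of TFIIB, and Gtf2e1, the other TFIIE subunit, were not called in any comparison, with 6 against 6 differences of -0.03 and 0.03.

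TFIIH opens the DNA at the start site and also takes part in nucleotide excision repair. In the 6 against 6 comparison 3 of its 4 measured core subunits fell, where 16.5% of all genes were lower. Gtf2h3 had the largest difference of all 47 members. It read -1.39, -0.66 and -0.86 in CD27+ CMP and -1.41, -0.99 and -1.02 in GMP. In CD27- CMP it read 1.01, 0.66 and 0.93, and in MEP 0.93, 1.33 and 1.31. All CD27+ arrays lay below 0 and all CD27- arrays above, with GMP lowest and MEP highest. It was 1.84 lower in the CD27+ than in the CD27- fraction of CMP (SE 0.21, adjusted p = 0.00014) and 2.33 lower in GMP than in MEP (SE 0.21, adjusted p = 2.6e-05).

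Gtf2h4 read -0.80, -0.35 and -0.64 in CD27+ CMP, -0.81, -0.29 and -0.23 in GMP, 0.64, 0.54 and 0.27 in CD27- CMP and 0.24, 0.23 and 0.52 in MEP. All CD27+ arrays lay below 0 and all CD27- arrays above. It was 1.08 lower between the CMP fractions (SE 0.18, adjusted p = 0.0019) and 0.78 lower in GMP (adjusted p = 0.011). Gtf2h1 read -0.82, -0.81 and -1.54 in CD27+ CMP, -0.09, 0.04 and -0.87 in GMP, 0.19, -0.04 and 0.35 in CD27- CMP and 0.43, 0.73 and 0.09 in MEP, so that only CD27+ CMP was low on all its arrays. It was 1.22 lower in the CD27+ than in the CD27- fraction of CMP (SE 0.29, adjusted p = 0.013) and 0.72 lower in GMP than in MEP (adjusted p = 0.12). Gtf2h5, the smallest subunit, ranged from -0.69 to 1.15 over the 12 arrays and was not called. The calls of Gtf2h3 and Gtf2h4 in both comparisons, and of Gtf2h1 between the CMP fractions, were made in each of the 12 fits that left out 1 array.

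The TFII-I family, DNA-binding proteins encoded in the region deleted in Williams syndrome, differed among its 3 members. Gtf2ird1 rose in both CD27+ populations. It read 0.22, 0.80 and 0.18 in CD27+ CMP and 0.23, 0.08 and 0.17 in GMP, against -0.08, -0.47 and -0.47 in CD27- CMP and -0.42, -0.71 and -0.35 in MEP. All CD27+ arrays were above 0 and all CD27- arrays below. The differences were 0.74 (SE 0.18, adjusted p = 0.014) between the CMP fractions and 0.66 (SE 0.18, adjusted p = 0.026) between GMP and MEP. The first was lost without CD27- CMP replicate 2 (adjusted p = 0.055) and the second in 5 of the 12 fits, and with the mean of both its probe sets they were 0.43 (adjusted p = 0.050) and 0.33 (adjusted p = 0.12).

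Gtf2i read -0.20, 0.37 and 0.65 in CD27+ CMP, -0.28, 0.02 and 0.57 in GMP, -0.60, -0.15 and -0.00 in CD27- CMP and -0.10, 0.00 and 0.49 in MEP. Gtf2ird2 read -0.42, 0.20 and 0.11 in CD27+ CMP, -0.59, -0.54 and 0.02 in GMP, 0.13, 0.24 and -0.02 in CD27- CMP and -0.37, -0.07 and 0.22 in MEP. Their populations overlapped. Without a replicate block neither was called in any comparison in limma's fit, with 6 against 6 differences of 0.25 (SE 0.21) for Gtf2i and -0.23 (SE 0.16) for Gtf2ird2. With the block Gtf2i was called between the CMP fractions (0.53, adjusted p = 0.0076) and in the 6 against 6 comparison (0.25, adjusted p = 0.031). It was also called there in CD27- CMP against GMP (-0.35, adjusted p = 0.041).

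TFIIIA, encoded by Gtf3a, and TFIIIC, of which 6 subunits were measured, recognise the promoters of polymerase III genes. Of these 7 members 2 fell and 1 rose in the 6 against 6 comparison, where 16.5% of all genes were lower and 15.1% higher. Among genes with a range of at least 0.5 log2, fitted alone, 28.8% were lower and 27.5% higher. The 2 lower calls were near the share of genes with that range. Gtf3c5, a DNA-binding subunit of TFIIIC, read -0.77, -0.09 and -0.21 in CD27+ CMP, -1.14, -0.89 and -0.42 in GMP, 0.54, 0.21 and 0.14 in CD27- CMP and 0.09, 0.16 and 0.48 in MEP. GMP was lowest, and no CD27+ array reached a CD27- array. It was 1.06 lower in GMP than in MEP (SE 0.23, adjusted p = 0.0079) and 0.66 lower in the CD27+ than in the CD27- fraction of CMP (adjusted p = 0.075). Gtf3c3 read -0.39, -0.22 and -0.59 in CD27+ CMP, -0.09, 0.30 and -0.20 in GMP, 0.29, -0.07 and 0.26 in CD27- CMP and 0.22, 0.58 and 0.07 in MEP, and its 6 against 6 difference of -0.42 (SE 0.13, adjusted p = 0.030) was lost in 6 of the 12 fits.

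Gtf3c6, the smallest TFIIIC subunit, went the other way. It read 0.03, 0.18 and 0.26 in CD27+ CMP, 0.01, 0.06 and 0.07 in GMP, -0.47, -0.85 and -0.38 in CD27- CMP and -0.51, -0.33 and -0.01 in MEP. The CD27- arrays were all below the CD27+ arrays, with MEP replicate 3 close to them. It was 0.73 higher in the CD27+ than in the CD27- fraction of CMP (SE 0.15, adjusted p = 0.0054), while the 0.33 between GMP and MEP did not pass (adjusted p = 0.16). Gtf3c2 was called in CD27- CMP against GMP alone (1.05, SE 0.33, adjusted p = 0.049). Its arrays read 0.02, 0.74 and 1.64 in CD27- CMP, -0.27, -0.44 and -0.02 in GMP, -0.03, -0.04 and 0.07 in CD27+ CMP and 0.06, -0.05 and 0.13 in MEP. CD27- CMP replicate 3 was far above the others, and the call was lost in 11 of the 12 fits. Gtf3c4 was called in CD27+ CMP against MEP alone (-1.05, SE 0.29, adjusted p = 0.028). Its arrays overlapped there, at -1.13, -0.13 and -0.74 in CD27+ CMP and 0.77, 0.51 and -0.14 in MEP. Its other probe set differed by 0.08 between the CMP fractions and 0.29 between GMP and MEP, where the one used gave -0.72 and -0.29. Gtf3a and Gtf3c1 were not called in any comparison.

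The remaining pairwise comparisons followed the CD27 division. CD27+ CMP against MEP gave 20 lower and 1 higher of 47, against 12.9% and 11.9% of all genes, and the 21 calls became 13 without CD27+ CMP replicate 1 and 13 without MEP replicate 2. CD27- CMP against GMP gave 16 higher and 3 lower, against 10.2% and 12.1% of all genes, and the 19 calls became 11 without CD27- CMP replicate 2, 10 without GMP replicate 1 and 12 without GMP replicate 2. These comparisons share arrays with those above. Between the 2 CD27+ populations limma's fit called 0 of 47 members (7 at an unadjusted p under 0.05), where 5.24% of all genes were called and 13.5% had an unadjusted p under 0.05. Between the 2 CD27- populations it also called 0 (5 at an unadjusted p under 0.05), where 0.033% of all genes were called and 6.29% had an unadjusted p under 0.05. The differences there ran from -0.76 to 0.46 in CD27+ CMP against GMP and from -0.81 to 0.76 in CD27- CMP against MEP. Both counts of 0 became 1 without certain arrays: CD27+ CMP replicate 2 or GMP replicate 3 in the first, and MEP replicate 3 in the second. In all, 27 members were called in at least 1 pairwise comparison and 20 in none.

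By order of the population means, both CD27- populations stood above both CD27+ populations for 29 of the 47 members (61.7%), against 56.1% of all genes. The reverse order held for 5 members (10.6%), against 20.1% of all genes. MEP had the highest mean for 24 members (51.1%, against 50.2% of all genes) and CD27+ CMP the lowest for 22 (46.8%, against 50.1%), shares close to those of all genes. GMP had the highest mean for 2 members (4.26%), Gtf2a1 and Gtf2e2, against 14.5% of all genes.

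Other probe sets of the same genes gave fewer calls in the same directions. Of the 50 that were not used, 6 were lower and 0 higher between the CMP fractions, where 7.76% of all probe sets with 1 symbol were lower and 9.09% higher. Between GMP and MEP 7 were lower and 0 higher, where 8.73% were lower and 8.99% higher. In all, 11 of the 50 were lower and 0 higher in the 6 against 6 comparison, adjusted over all probe sets. Of all probe sets with 1 symbol 13.2% were lower and 12.2% higher there. The second probe sets of Polr3d (-1.22 and -1.28), Polr1e (-0.58 and -0.81) and Gtf2f1 (-1.18 and -1.07) were lower both between the CMP fractions and between GMP and MEP. The other probe sets of Gtf2ird1 (0.11 and 0.01), Gtf3c6 (0.16 and -0.09) and Polr3e (-0.02 and -0.05) were close to 0 in both. Those of Polr1d were not called between the CMP fractions (-0.16, -0.13 and -0.29). Between GMP and MEP they differed by -0.34 and -0.43, both called, and by -0.29, not called. For Polr3k another probe set was called lower between the CMP fractions (-0.67), a further one gave 0.31, and the rest were not called there. No member had probe sets called in opposite directions in any comparison.

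Genes that complete these complexes under other names were read as lists, beside which 10.3% of all genes were lower between the CMP fractions and 11.3% between GMP and MEP. Of 16 measured genes of TBP and TFIID, 6 fell between the CMP fractions and 6 between GMP and MEP, with none higher. They include Taf12 (-1.31, adjusted p = 9.5e-05, and -1.41, adjusted p = 5.3e-05), a histone-fold subunit of TFIID, and Taf9b (-1.17 and -1.43). Of the 5 remaining TFIIH genes only Cdk7, the kinase that phosphorylates the polymerase II tail, fell in both (-1.11, adjusted p = 0.026, and -1.01, adjusted p = 0.039). Of 11 other polymerase III genes 2 fell in both: Brf1, the TFIIIB subunit used at transfer RNA genes (-0.89, adjusted p = 0.00030, and -1.27, adjusted p = 2.6e-05), and Snapc3, of the complex that binds small nuclear RNA promoters (-1.23 in each). Of 11 other polymerase I genes 1 fell between the CMP fractions (9.09%, near the share of all genes) and 2 between GMP and MEP (18.2%): Taf1c, of the promoter selectivity factor (-1.58, adjusted p = 0.00062, and -1.46, adjusted p = 0.00094), and Ubtf, which binds ribosomal DNA (-0.87 in GMP, adjusted p = 0.021). The medians between the CMP fractions were -0.29 for TBP and TFIID, -0.19 for the TFIIH genes, -0.37 for polymerase III and -0.28 for polymerase I, where all genes had -0.03.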

How the data were processed

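RNA of 4 sorted mouse progenitor populations, 3 arrays each, was hybridised to Affymetrix mouse genome arrays. The table deposited by the authors holds 45037 probe sets on a log2 scale. Per the submitters' processing notes the tool was GCRMA, version not given in the sources used here. No label gives the base of the logarithm, which was taken from the tool. The median of every probe set over the 12 arrays lies within 5e-07 of 0, so levels are relative and no filter on absolute signal was possible. GCRMA draws weak signals toward background, so the size of a difference with 1 side near background is uncertain.

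Of the probe sets, 34945 had 1 gene symbol in the platform annotation, giving 18193 genes, each read on the probe set that varied most. limma 3.58.1 (R 4.3.3) fitted 1 mean per population over all 12 arrays, with default empirical Bayes moderation (prior degrees of freedom 0.992), two-sided tests and Benjamini-Hochberg adjustment over all genes, and was tested on simulated data. The threshold was an adjusted p under 0.05. Replicate numbers were checked for pairing by the correlation of deviations from the population means. It was above 0 for every same-number pair among GMP, MEP and CD27+ CMP, and of mixed sign for pairs with CD27- CMP. The standard error of a pairwise difference had a median of 0.144 log2 over genes and a 90th percentile of 0.36. It depends on the spread of each gene and on the number of arrays. Values are given in full for up to 4 members per complex with the largest called, non-overlapping pairwise difference, and for catalytic subunits and paralogues. Up to 3 called genes are named from other lists. Members and lists were chosen with earlier results of these data known. Promoters are RefSeq windows of GRCm38.p6.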

Additional observations from a re-analysis of the deposited data

How the results depend on the processing

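The counts of members called stayed within 1.5 times the values above under quantile normalization, centring of the arrays, robust moderation, the mean of the probe sets of a gene, a minimum range of 0.5 log2 and adjustment over all probe sets, in all 8 comparisons. Array weights, whose estimation stopped before convergence, gave 38 called between the CMP fractions (30 lower), 38 for CD27- CMP and GMP (28 higher in CD27- CMP), 12 for CD27+ CMP and MEP, 13 between the CD27+ populations and 1 in the test between the comparisons; the cause was not tested. With these weights 58.7%, 72.2%, 25.2%, 22.4% and 4.89% of all genes were called in those comparisons, in that order. With these weights Polr3gl in CD27- CMP against GMP turned from 0.30 to -0.26. Leaving out 1 array at a time gave 14 to 22 calls between the CMP fractions, 10 to 20 for GMP and MEP, 13 to 23 when CD27+ CMP was set against MEP, 10 to 18 when CD27- CMP was set against GMP, and 21 to 29 with 6 arrays on each side. It gave 0 to 1 between the CD27+ populations, 0 to 1 between the CD27- populations and 0 to 1 for the test between the comparisons. In the 6 against 6 comparison 21 of the 26 calls were made under every alternative run.

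A replicate block gave 23 calls between the CMP fractions, 19 for GMP and MEP, 26 for CD27+ CMP and MEP, 22 for CD27- CMP and GMP, 27 in the 6 against 6 comparison and 0 in the others. Among the members described in full, it ended the calls of Gtf2ird1 in GMP against MEP (adjusted p = 0.054) and, in CD27- CMP against GMP, of Polr2m (0.066) and Polr3e (0.053). Calls that the block added between the CMP fractions include Gtf2i (adjusted p = 0.0076), Gtf2a2 (0.0086), Polr3a (0.0092), Gtf2f1 (0.016) and Polr2e (0.039). Deviations of arrays with the same replicate number correlated across genes at a median r of 0.115 (18 pairs, -0.328 to 0.576), and those with different numbers at -0.0694 (36 pairs, -0.494 to 0.451). Each same-number pair exceeded 0.1 for GMP with MEP (0.434, 0.275 and 0.576) and for GMP with CD27+ CMP (0.572, 0.226 and 0.261). For MEP with CD27+ CMP all were above 0 as well (0.402, 0.0924 and 0.198). Each population paired with CD27- CMP gave values on both sides of 0, so the block was kept as an alternative over all 12 arrays.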

Other observations

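Genes of polymerase II pausing and elongation did not share one direction. Of 26 measured, 7 were lower and 2 higher in the 6 CD27+ against the 6 CD27- arrays (26.9% and 7.69%, where 16.5% and 15.1% of all genes were). The elongation factor gene Ell2 differed by -4.90 log2 between CD27+ and CD27- CMP (SE 0.48, adjusted p = 5.8e-05 in limma's fit) and by -4.10 between GMP and MEP (adjusted p = 0.00017). The scaffold genes of the super elongation complex, Aff1 and Aff4, were higher in the CD27+ arrays by 1.27 (SE 0.12, adjusted p = 2.1e-05) and 1.33 (SE 0.24, adjusted p = 0.0019). Aff1 also differed between the comparisons, by -1.27 (SE 0.23, adjusted p = 0.026): it was 1.90 higher in GMP than in MEP.

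Of 5 genes of mitochondrial transcription, 4 were lower in the CD27+ arrays and none was higher. The mitochondrial polymerase gene Polrmt differed by -0.97 (SE 0.24, adjusted p = 0.013), and Tfb1m, a mitochondrial ribosomal RNA methyltransferase, by -0.82 (SE 0.10, adjusted p = 0.00017). Among all genes 16.5% were lower in that comparison.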
